A study of Mus musculus with 8 samples.

Results

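The cyclins of the cell cycle were followed in muscle satellite cells, stem cells that lie beside the muscle fibre, as a set of 9 genes: Ccnd1, Ccnd2, Ccnd3, Ccne1, Ccne2, Ccna2, Ccnb1, Ccnb2 and Ccnf. They were found by their gene name on a 1-colour Agilent array, where 13 probes carry one of these names among 36362 gene names in all. Of the 9 genes, 8 passed the filter on dim signal and were tested, among 22170 genes tested. Total RNA came from cells sorted as positive for integrin alpha 7 and negative for CD31, CD45, CD11b and Sca1, from mice labelled C57BL/6, male and 3 months old, and was labelled with Cy3. The basal group (n = 4 arrays) came from muscle in homeostasis and the injured group (n = 4 arrays) from muscle 3 days after cardiotoxin, a venom toxin that destroys muscle fibres. The names of the authors' deposited values mark every array WT, read here as wild type, and no genetic change is named for either group. Each array is labelled a biological replicate, with no word on whether animals were pooled. In bulk RNA of this kind, fewer cells with a transcript and less of it per cell cannot be told apart.

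Cyclins are the regulatory subunits of cyclin-dependent kinases, or Cdks, and most are made and destroyed in step with the cell cycle. D-type cyclins carry growth signals to Cdk4 and Cdk6 in G1, cyclin E drives Cdk2 into S phase, cyclin A serves S phase and G2, and B-type cyclins with Cdk1 bring about mitosis. Satellite cells of uninjured adult muscle are mostly quiescent and enter the cell cycle after injury.

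All values are log2 of the processed signal minus the 75th percentile of the same array, so 0 is that percentile, and differences are injured minus basal with the moderated standard error of limma. A gene was called when its adjusted p (Benjamini-Hochberg over all genes tested) was under 0.05. The 75th percentile of the signal was 104 to 132, no spot was saturated, and 50.15% to 56.74% of spots were well above background. The basal arrays lay on 1 slide with 1 scan and the injured arrays on another, so injury, slide and scan cannot be told apart. Xist, the RNA of the inactive X chromosome of females, stood at 6.37 to 6.57 on injured 2, 3 and 4, at 1.72 on injured 1, and at 3.85, 2.15, -1.12 and -4.97 on basal 1 to 4, although every mouse was labelled male. The Y-linked gene Ddx3y was above background on 4 basal arrays and, of the injured ones, on injured 1. Results are therefore also given without basal 1 and 2, and with injured 1 as the only injured array. Neither choice matches the groups in these genes. Without basal 1 and 2, basal arrays low in Xist still stand against injured 2, 3 and 4, and with injured 1 alone, basal 1 and 2 remain. Injury and the difference in Xist and Ddx3y thus cannot be told apart. Pax7, the satellite cell transcription factor, was 2.95 ± 0.21 lower on the injured arrays, and Mki67, a protein of cycling cells, was 2.65 ± 0.42 higher (limma, adjusted p = 1.9e-05 and 8.7e-04). The myogenic factors Myod1 and Myog were 0.77 ± 0.12 and 4.09 ± 0.71 higher (adjusted p = 9.1e-04 and 0.00137), and Myog read 0.03 and -0.20 on basal 1 and 2 and -3.11 and -2.12 on basal 3 and 4.

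Of the 8 cyclins tested, 6 were called higher after injury and 0 lower. Among all genes tested, 33.1% were called higher and 24.8% lower, and the median difference was 0.13. Ccne1, Ccna2, Ccnb1, Ccnb2 and Ccnf rose by 2.15 to 4.47 and Ccnd1 by 0.82, while Ccnd2 and Ccnd3 had differences of -0.40 and -0.34 that were not called. In 5 of the 8 the injured values did not overlap the basal ones, as in 54.7% of all genes tested. Only genes above background in at least 1 group could be tested, so these counts describe the tested members and leave out Ccne2. Ccna2, above background on 2 basal and 4 injured arrays, entered the counts through the injured arrays alone, where it was high.

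The probes show what was measured, and 4 of them are given as the array files hold them, 5′ to 3′, with their places on mouse build mm9. They are the single Ccnd2 probe and the probes of Ccne1 and Ccnb1 that lie farthest from the end of the transcript.
Ccnd2, chr6:127098696-127098755, minus strand: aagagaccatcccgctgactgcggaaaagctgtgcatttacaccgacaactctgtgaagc
Ccne1, chr7:38885574-38885633, minus strand: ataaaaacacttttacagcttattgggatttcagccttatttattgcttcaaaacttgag
Ccnb1, chr13:101553449-101553508, minus strand: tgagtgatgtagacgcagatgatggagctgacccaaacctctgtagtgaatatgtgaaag
Ccnb1, chr13:101551224-101551283, minus strand: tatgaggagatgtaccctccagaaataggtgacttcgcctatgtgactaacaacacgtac
By the array files, these probes start at base 609 of a Ccnd2 transcript, at base 741 of Ccne1, and at bases 532 and 846 of Ccnb1.

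**Figure D1:**
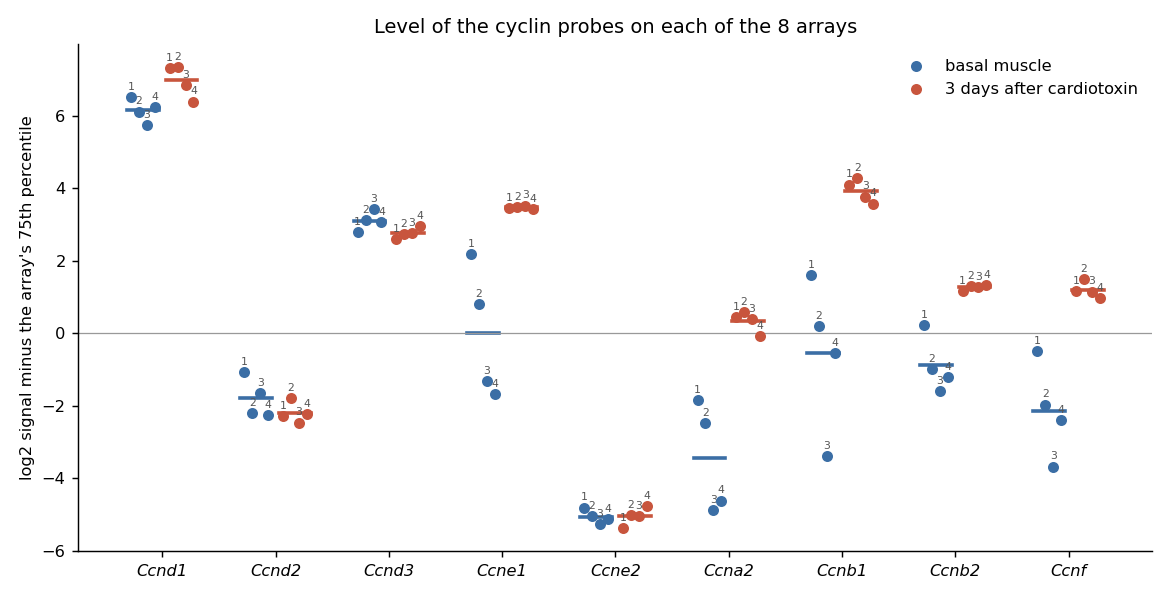
Level of the highest probe of each cyclin on every array, on a log2 scale relative to the array's 75th percentile; points carry the replicate number, blue for basal and red for injured, and bars are group means (n = 4). The 5 cyclins from Ccne1 to Ccnf other than Ccne2 show no overlap between groups, with basal 1 the highest of the basal arrays; heights are not comparable between genes.

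Among the D-type cyclins of G1, only Ccnd1 was called. Ccnd1 had values of 6.52, 6.12, 5.75 and 6.23 on basal 1 to 4 and of 7.32, 7.35, 6.85 and 6.40 on injured 1 to 4. Injured 1, 2 and 3 were above every basal array, and injured 4 lay between basal 1 and the other basal arrays, so the groups overlapped. The difference was 0.82 ± 0.25, or 1.77-fold higher (n = 4 per group, limma, adjusted p = 0.0207). This call was lost without basal 3 (0.69, adjusted p = 0.0516), without injured 1 (0.71, adjusted p = 0.0596) or without injured 2 (0.70, adjusted p = 0.0593), and under quantile normalization (0.59, adjusted p = 0.0595). A larger difference was seen in 22.5% of all genes tested. The probe lies at chr7:152116202-152116261 (mm9).

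Ccnd2, a D-type cyclin induced by growth signals in many cells, had values of -1.07, -2.20, -1.66 and -2.26 on basal 1 to 4. Its injured values were -2.29, -1.78, -2.47 and -2.24. Basal 1 was highest and the other arrays of both groups were mixed. The difference was -0.40 ± 0.28 (adjusted p = 0.249), with a 95% interval from -1.04 to 0.24. That interval reaches from a fall of over 1 log2 unit to a small rise, so neither a fall nor a lack of change was shown.

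Ccnd3, the D-type cyclin known for its high level in differentiating muscle cells, had values of 2.79, 3.11, 3.42 and 3.07 on basal 1 to 4 and of 2.59, 2.74, 2.77 and 2.95 on injured 1 to 4. The injured arrays stood low, but injured 4 was above basal 1. The difference was -0.34 ± 0.16 (adjusted p = 0.0976), with a 95% interval from -0.70 to 0.02. A second probe gave -0.33 ± 0.22. Ccnd3 was called lower without basal 1 (-0.44, adjusted p = 0.0291) and without basal 1 and 2 (-0.49, adjusted p = 0.0362). In the authors' deposited table, where the median difference of all genes was 0.226 higher, the difference was 0.34 for Ccnd3 and 0.11 for Ccnd2, neither called, or -0.01 and -0.24 relative to that median.

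Differences within a class were compared directly, in 5 pairs, by an exact two-sided permutation test over the 8 arrays, whose smallest possible p is 0.0286. Ccnd1 rose by 1.22 ± 0.34 more than Ccnd2 (p = 0.0286, exact permutation, 0.0714 adjusted over the 5 pairs) and by 1.16 ± 0.41 more than Ccnd3 (p = 0.0571, exact permutation, adjusted 0.0952). Between Ccnd2 and Ccnd3 the gap was -0.06 ± 0.39 (p = 0.886, exact permutation). None of these passed after adjustment.

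The E-type cyclins partner Cdk2 at the entry into S phase. Ccne1 had values of 2.19, 0.81, -1.33 and -1.67 on basal 1 to 4 and of 3.45, 3.49, 3.52 and 3.44 on injured 1 to 4. Every injured array was above every basal array, and the injured values were close together (SD 0.04) where the basal ones were spread (SD 1.82). The difference was 3.47 ± 0.77, or 11.1-fold (adjusted p = 0.0048), and 4.37 ± 0.70 with the second probe, which was above background on 3 of 4 basal arrays. Without basal 1 the difference was 4.204. The only Ccne2 probe read -5.27 to -4.81 on the basal and -5.37 to -4.77 on the injured arrays, was not well above background on any of the 8, and was not tested. Of its 60 bases, 9 are G or C, fewer than in any other probe of these genes.

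Ccna2, the cyclin of S phase and G2, had values of -1.84, -2.48, -4.87 and -4.62 on basal 1 to 4, and those of basal 3 and 4 were not well above background. Its injured values were 0.44, 0.59, 0.40 and -0.08. All injured arrays stood above all basal arrays, and basal 1 and 2 stood above basal 3 and 4. The fitted difference was 3.79 ± 0.66 (adjusted p = 0.00137), and its size rests in part on values below background. With basal 3 and 4 set to the lowest signal that counted as above background on each array, Ccna2 was at least 7.91-fold higher. This bound holds only for the background subtraction used here. With normexp, another correction for background, the log2 difference was 1.49. In the authors' deposited table it was 0.83 and not called (adjusted p = 0.219).

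Among the mitotic cyclins, Ccnb1, which with Cdk1 starts mitosis, had the largest difference of the members. It read 1.60, 0.19, -3.39 and -0.55 on basal 1 to 4, with basal 3 not well above background, and 4.10, 4.29, 3.77 and 3.58 on injured 1 to 4. Every injured array was above every basal one, and basal 3 was the lowest. The fitted difference was 4.47 ± 0.90 (adjusted p = 0.00287), or at least 21.7-fold with basal 3 set to that lowest signal. That bound, too, holds only for the background subtraction used here. The other probes gave 3.98 ± 1.05 and 3.62 ± 0.70. The difference was 5.18 without basal 1 and 3.52 without basal 3. The array files list a second transcript beside Ccnb1 for its probes, and signal from a near-identical copy cannot be told apart.

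Ccnb2, the B-type cyclin found mainly at the Golgi, had values of 0.24, -0.98, -1.60 and -1.21 on basal 1 to 4 and of 1.17, 1.31, 1.27 and 1.32 on injured 1 to 4. The groups did not overlap, and basal 1 was again nearest to the injured arrays. The difference was 2.15 ± 0.35, or 4.45-fold (adjusted p = 9.3e-04). Ccnb1 rose by 2.32 ± 0.75 more than Ccnb2. This reached the smallest p the design allows (p = 0.0286, exact permutation) but did not pass after adjustment (0.0714). Under the alternatives it ran from 1.60 without basal 3, where Ccnb1 was not well above background, to 3.24 without basal 1 and 2. Ccna2 and Ccnb1 differed in their rise by -0.68 ± 0.56 (p = 0.343, exact permutation, adjusted 0.429). That gap was -0.21 without basal 3, -1.07 without basal 4, -2.001 and -1.86 with normexp correction and -3.61 in the authors' deposited table. It passed in none of these (adjusted p from 0.0714 to 0.786, exact permutation). Both pairs used the Ccnb1 probe with the largest rise. The other Ccnb1 probes rose by 3.98 and 3.62, against 3.79 for Ccna2 and 2.15 for Ccnb2, and were not tested in pairs.

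Ccnf is an F-box protein that binds no Cdk and serves as the substrate receptor of an SCF ubiquitin ligase. Its values were -0.49, -1.97, -3.68 and -2.39 on basal 1 to 4, of which that of basal 3 was not well above background, and 1.16, 1.502, 1.15 and 0.96 on injured 1 to 4. The injured arrays were all higher, and basal 3 was the lowest, as for Ccnb1. The fitted difference was 3.32 ± 0.57 (adjusted p = 0.00126), or at least 9.31-fold with basal 3 set to the lowest signal above background. That bound holds only for the background subtraction used here.

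**Figure D2:**
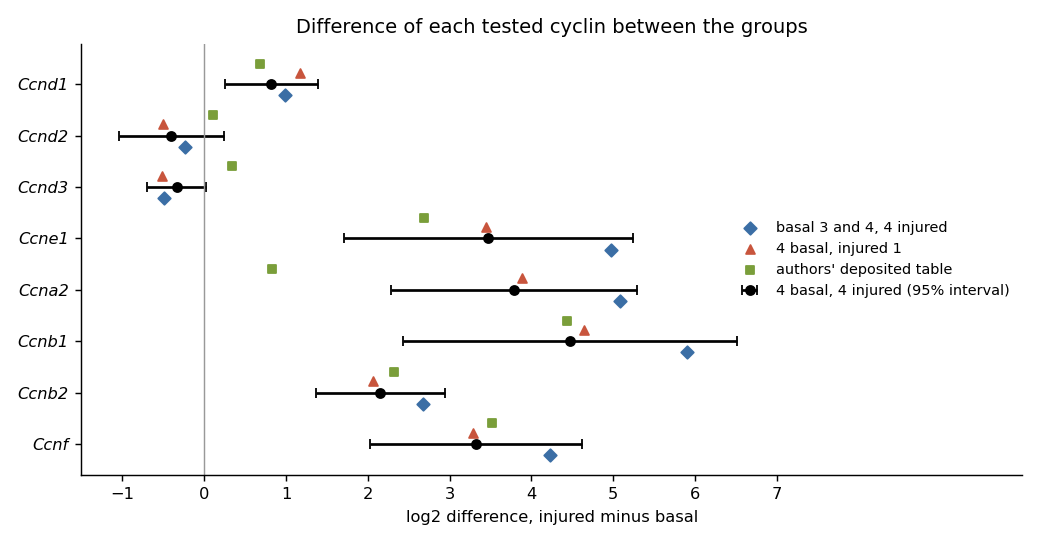
Log2 difference, injured minus basal, of the 8 tested cyclins; black points use all arrays with 95% intervals, diamonds leave out basal 1 and 2, triangles keep injured 1 as the only injured array, and squares come from the authors' deposited table. The diamonds of the 5 cyclins from Ccne1 down lie at 2.67 to 5.90, right of the black points, and the square of Ccna2 lies at 0.83.

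The sizes of the rises depended on which basal arrays were used and on how background was handled. Without basal 1 and 2 the differences were 4.97 for Ccne1, 5.08 for Ccna2, 5.90 for Ccnb1, 2.67 for Ccnb2, 4.23 for Ccnf and 0.99 for Ccnd1 (limma, adjusted p from 7.0e-06 to 0.0283). With injured 1 as the only injured array they were 3.45, 3.89, 4.64, 2.06, 3.29 and 1.17, close to those with all arrays. In that comparison 0 cyclins were called by limma, 5 of 8 had an unadjusted p under 0.05, and the lone array was taken to vary like the basal ones. With normexp background correction and the same percentile, the differences were 2.69 for Ccne1, 1.49 for Ccna2, 3.50 for Ccnb1, 1.35 for Ccnb2 and 1.81 for Ccnf, and all 5 were called.

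The basal arrays differed among themselves in these genes. Relative to the mean injured level, Ccne1 stood at 41.0% on basal 1, 15.7% on basal 2, 3.59% on basal 3 and 2.83% on basal 4. For Ccnb1 the levels were 19.8%, 7.46% and 4.46% on basal 1, 2 and 4, and at most 0.682% on basal 3, where it was not above background. Ccna2 stood at 22.2% and 14.2% on basal 1 and 2, and at most at 8.27% and 9.81% on basal 3 and 4, where it was not above background. Ccnb2 ranged from 13.8% on basal 3 to 49.0% on basal 1, and Ccnf from at most 4.57% to 31.1% on the same arrays. These upper limits hold only for the background subtraction used here. Ccnd1 varied less, from 42.7% on basal 3 to 72.6% on basal 1. Over all genes called higher, the median level was 54.9%, 47.9%, 44.6% and 47.0% on basal 1 to 4. Basal 1 was the highest basal array for 6 of the 6 called cyclins and for 54.5% of 7333 genes called higher with a value on every array.

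**Figure D3:**
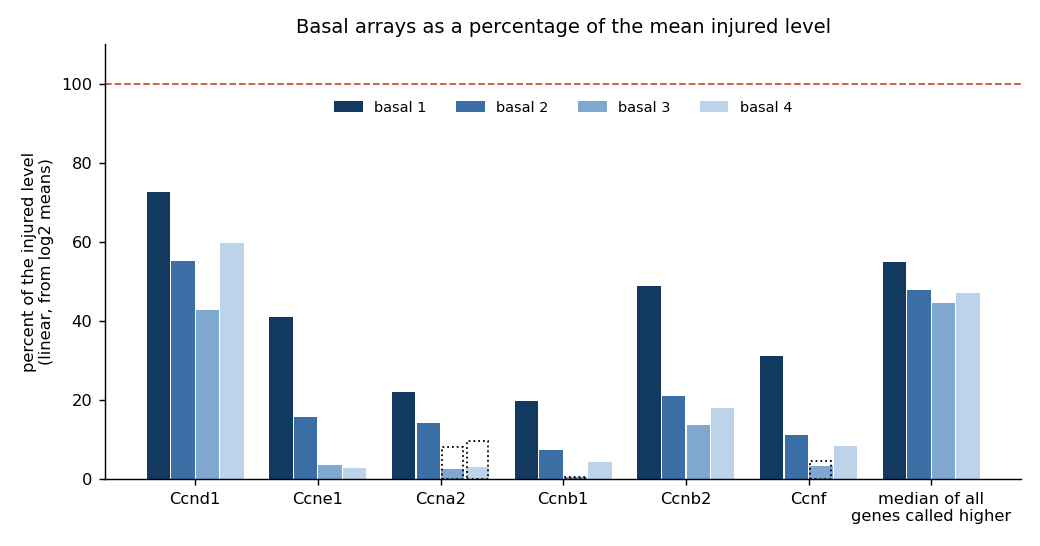
Signal on each basal array as a percentage of the mean injured level (dashed line at 100%), for the 6 cyclins called higher and for the median of all genes called higher; bars are single arrays, and dotted outlines give the upper limit where the signal was not well above background. Basal 1 is the tallest bar for all 6 cyclins, at 19.8% for Ccnb1 and 72.6% for Ccnd1.

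Other measures also set basal 1 apart or differed between the groups. Mki67 read 1.33 on basal 1 and -1.004 to 0.50 on the other basal arrays. The summed level, on a log2 scale, of 8 endothelial markers was highest on basal 1, at 5.32, with 4.51 to 5.01 on the other basal and 3.23 to 3.54 on the injured arrays; 1 of 6 tested was higher and 2 were lower. The 5 Schwann cell markers summed to 4.89 on basal 1 and to 2.68 to 3.23 on all other arrays, with 1 of 4 tested higher and 3 lower. Fibro-adipogenic markers summed to 5.85 to 6.43 on the basal and 2.94 to 3.43 on the injured arrays (0 higher and 3 lower of 4), with Pdgfra never above background. Pericyte and smooth muscle markers summed to 3.69 to 4.03 and 2.15 to 3.07 (0 higher and 5 lower of 7). Muscle fibre markers summed to 2.85 to 3.67 and 4.16 to 5.46 (1 higher and 2 lower of 4). Macrophage markers summed to 8.89 to 9.08 and 8.94 to 9.19 (0 higher and 1 lower of 6). Lymphocyte markers summed to 2.24 to 2.45 and 2.19 to 2.29 (1 higher and 0 lower of 3), with Cd3g, Cd8a and Ms4a1 never above background. Satellite cell markers summed to 7.09 to 7.71 and 6.84 to 7.17 (2 higher and 3 lower of 7), with Myf5 never above background. The part of these other cells in the cyclin values was not tested.

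The genes whose course over the 8 arrays was nearest to each cyclin were found by the root mean square difference of mean-centred log2 values, over 13420 genes with a current symbol. For Ccnb1 they were Mcm5, a subunit of the replicative helicase (0.214), Dlgap5, a spindle protein (0.361), and Vcan, a matrix proteoglycan (0.364). For Ccna2 they were Cdca7 (0.236), Me1, malic enzyme (0.247), and Dtl, the substrate receptor of a ubiquitin ligase (0.250). Ccne1 lay nearest to Eno3, the enolase of muscle (0.0928), then Pmch (0.225) and Asns, asparagine synthetase (0.245). Ccnb2 lay nearest to Atp5g1, a subunit of ATP synthase (0.0959), E2f2 (0.137) and Cdv3 (0.139), and Ccnf to Stmn1, a microtubule destabiliser (0.161), Ctxn1 (0.166) and Gm11223 (0.175). The nearest genes to Ccnd1 were Trir, Rexo5 and Nsmce3 (0.164 to 0.174), those to Ccnd2 were Wdfy1, Corin and Med26 (0.203 to 0.218), and those to Ccnd3 were Zfp930, Trim3 and Iqcg (0.0905 to 0.0986). Among the cyclins themselves, Ccne1 and Ccna2 were nearest to each other (0.360), with 16 other genes nearer to Ccne1 and 24 nearer to Ccna2. For the other members, more genes lay nearer than the nearest cyclin. These were 35 for Ccnb1, 123 for Ccnf, 2169 for Ccnb2, 2441 for Ccnd2, 5545 for Ccnd3 and 8248 for Ccnd1. These are descriptions over 8 arrays that share slides by group.

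Promoter sequences were read for the cyclins with an entry in the RefSeq promoter table (GRCm38.p6), which were 5 of 9: Ccnd3, Ccne1, Ccnb1, Ccnb2 and Ccnf. Each entry covers 250 bases before to 50 after the start. The CCAAT box (CCAAT, bound by NF-Y) and the cell cycle homology region (TTTGAA, bound by the DREAM and B-Myb complexes) are known elements of mitotic promoters. They are shown in capitals, on the strand of the gene, for the 3 cyclins among these that hold at least 2 CCAAT boxes, up to the base before the start.
Ccnb1, chr13:100786487-100786606, minus strand: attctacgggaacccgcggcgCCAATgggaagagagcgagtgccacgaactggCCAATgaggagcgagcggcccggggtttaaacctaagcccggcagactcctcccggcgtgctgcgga
Ccnb2, chr9:70421555-70421674, minus strand: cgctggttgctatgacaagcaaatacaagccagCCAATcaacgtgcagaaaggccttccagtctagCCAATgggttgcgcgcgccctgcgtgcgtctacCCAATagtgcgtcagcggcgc
Ccnf, chr17:24251410-24251559, minus strand: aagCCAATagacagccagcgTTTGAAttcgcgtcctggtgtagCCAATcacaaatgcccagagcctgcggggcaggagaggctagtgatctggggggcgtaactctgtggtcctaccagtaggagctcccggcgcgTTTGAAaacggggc
The first base of a CCAAT box lies 99 and 67 bases before the start in Ccnb1, 87, 54 and 21 in Ccnb2, and 147 and 107 in Ccnf. TTTGAA lies 130 and 14 bases before the start in Ccnf, and in Ccnb2 167 bases before and 4 after it, outside the stretch shown. Of all 32851 promoters, 37.4% hold CCAAT on either strand and 11.7% hold it at least 2 times. TTTGAA is in 17.9%, and 2.31% hold it at least 2 times, as Ccnb2 and Ccnf do. A single match to either motif is therefore common. One of the 2 Ccnd3 entries holds 1 CCAAT box, and Ccne1 has no match to either motif in this window. The E2F motifs TTTCGCGC and TTTGGCGC, searched on both strands, had no match in any of these entries and are in 0.323% and 0.514% of all promoters. A match is a description of letters and was not tied to the arrays by a test.

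Genes around the cyclins in the same pathway were read from 6 lists, against 33.1% of all genes called higher and 24.8% lower. A gene entered these counts when above background in at least 1 group, so they describe the tested genes only. Those called higher that entered through the injured arrays alone were Cdk6, Cks2, Mastl, Cdc25a, Cdkn2a, Rb1, Rbl1, E2f4, E2f8, Ccng1 and Ccnj. Cables1, Ccng2 and Ccno, called lower, entered through the basal arrays alone. Of the Cdk subunits, Cks proteins and the Cdk-activating kinase, 7 of 8 tested were higher and 0 lower, with a median difference of 2.23, or 2.17 with Cdk6 at its bound. Cdk1, the partner of B-type cyclins, rose by 3.56 ± 0.92 (limma, adjusted p = 0.01), with its 3 probes from 0.73 to 3.71, and Cks1b, a small Cdk-binding protein, by 3.11 ± 0.51. The Cdk1 probe used was well above background on 3 of the 4 basal arrays. Cdk6, a partner of D-type cyclins, was not well above background on any basal array and was at least 5.69-fold higher on the injured ones (adjusted p = 1.2e-05). Such bounds set the mean of the brighter group against the lowest signal that counted as above background on each array of the other. They hold only for the background subtraction used here.

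Of the phosphatases and kinases that set Cdk activity, 6 of 9 were higher and 1 lower (median 1.93, or 1.58 with Mastl at its bound). The kinase Aurka rose by 3.41 ± 0.69, the phosphatase Cdc25a by 2.61 ± 0.55 and the kinase Plk1 by 2.51 ± 0.50. Cdc25a was well above background on 2 of the 4 basal arrays, so the size of its rise rests in part on dimmer signal. Ensa, an inhibitor of the phosphatase PP2A, fell by 0.40 ± 0.12 (adjusted p = 0.0163; -1.36 with a second probe), a call lost without basal 1 and 2 (-0.35, adjusted p = 0.0605) and with the opposite sign in the authors' deposited table (0.45, adjusted p = 0.414).

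Of the ubiquitin ligases that destroy cyclins and their partners, 14 of 24 were higher and 0 lower (median 0.49). Cdc20, the activator of the anaphase-promoting complex in mitosis, rose by 3.19 ± 0.54, its E2 enzyme Ube2c by 2.95 ± 0.68 and its inhibitor Fbxo5 by 2.55 ± 0.19. The ligase subunits Fbxo4, Fbxo31 and Ambra1, which act on D-type cyclins, had differences of -0.12, -0.05 and 0.17 and were not called.

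Of 7 Cdk inhibitors, 4 were higher and 2 lower (median 1.03): Cdkn1c (2.26), Cdkn2b (1.53) and Cdkn2a (1.19) led the rises, and Cdkn1b (-1.45) and Cdkn2d (-0.82) fell. The call of Cdkn2d was lost when any 1 of 7 arrays was left out, all but basal 4 (adjusted p from 0.0593 to 0.0933), and that of Cdkn2a without basal 1 and 2 (0.84, adjusted p = 0.0713). In the authors' deposited table Cdkn2a (-0.60) and Cdkn2d (0.42) had the opposite sign, and Cdkn1b (-0.62, adjusted p = 0.267) and Cdkn2b (1.27, adjusted p = 0.0521) were not called. Of 17 pocket proteins, E2F factors and DREAM or B-Myb-Foxm1 members, 13 were higher and 0 lower (median 1.43), led by Mybl2 (3.48), Foxm1 (3.1) and E2f8 (3.01). Cdkn2a and E2f8 were each well above background on 1 basal array, and Cdkn2b on 3. The sizes of these rises rest in part on signal not well above background.

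Cyclins of transcription or of less known role divided the other way, with 5 of 14 higher and 8 lower (median -0.52). Ccnl1, a cyclin tied to splicing, fell by 2.27 ± 0.26 (adjusted p = 1.6e-04). Cables1, a Cdk-binding protein with a cyclin-like domain, was not well above background on any injured array and was at least 12.1-fold lower (adjusted p = 2.2e-06). In the authors' deposited table its difference was -1.25 and not called (adjusted p = 0.0837). Ccng2, known to be raised in arrested cells, was likewise at least 3.23-fold lower (adjusted p = 4.6e-04), with a difference of 0.12 in the authors' deposited table. Ccnyl1 rose by 2.35 ± 0.39, and Ccng1, a p53 target above background on 0 basal and 3 injured arrays, was at least 1.88-fold higher (adjusted p = 0.00342). Ccng1 was not called in the authors' deposited table (1.44, limma, adjusted p = 0.0557).

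**Figure D4:**
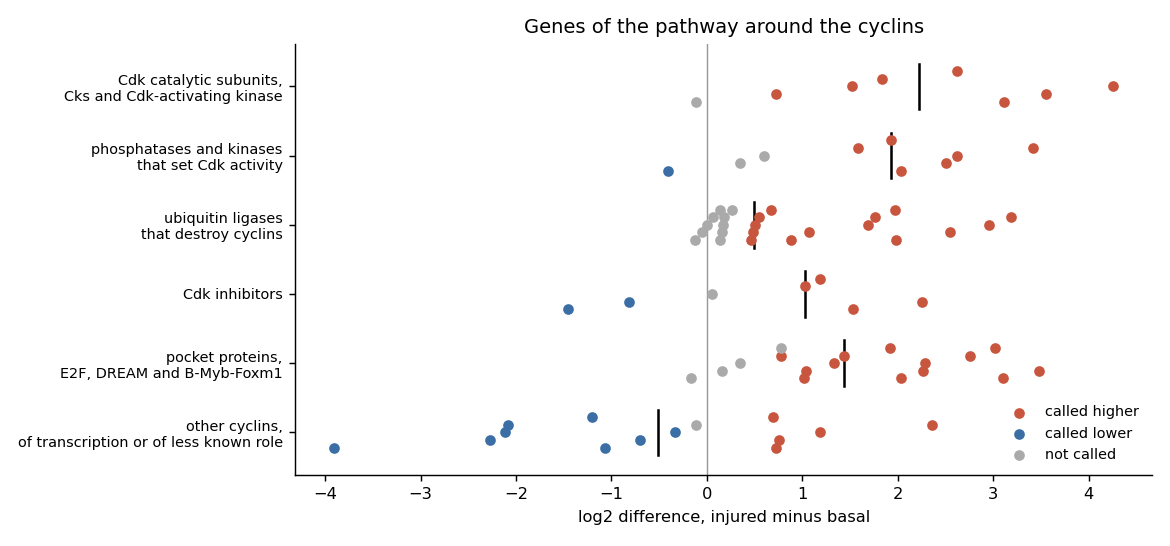
Log2 difference, injured minus basal, of each tested gene of 6 pathway lists; red points were called higher, blue points lower, grey points not called, and black ticks are list medians. The Cdk list has its median at 2.23 and the list of other cyclins at -0.52, where all genes tested have 0.13.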

How the data were processed

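Spot intensity values in the deposited scanner files had background subtracted within each array; per the file headers they come from Feature Extraction version 10.7.3.1. Log2 values deposited by the authors served as an alternative; the submitters' processing notes name Agilent Feature Extraction and limma, and no source used here gives their steps. In these values, the columns of basal 2, 3 and 4 correlated with their own arrays at r = 0.765, 0.678 and 0.571 across probes. Of 62976 spots per array, controls were left out, and values flagged as outliers, which touched 925 spot positions, leaving 55681 probes whose spots were averaged. Each gene was the probe with the highest mean; it was tested if well above background on at least 3 of 4 arrays of a group. limma 3.58.1 (R 4.3.3, with the data.table package, version 1.17.8) was fitted to all 8 arrays, two-sided; the script was tested on simulated data. The labels call the arrays biological replicates and name no animals, so p-values measure the spread between these arrays. Same-numbered arrays did not deviate together (r -0.00983 to 0.105), so numbers were not taken as pairs. One planned pair, of Ccne1 and Ccne2, was not formed. The text names the 9 members, up to 3 called genes of each list in the direction of most and up to 2 in the other, the 3 nearest genes of each member, and landmark and marker genes. Fbxo4, Fbxo31, Ambra1, Mastl, Cks2, Rb1, Rbl1, E2f4, Ccnj, Ccno, Xist and Ddx3y were added after their values were seen. The members and lists were chosen with earlier results of these data known. Alternatives were other scalings, background corrections, filters and probe rules, limma's options, a replicate block, and arrays left out.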

Additional observations from a re-analysis of the deposited data

How the results depend on the processing

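The rises of Ccne1, Ccnb1, Ccnb2 and Ccnf kept their direction under the alternatives that tested them, and their call under all of these but the comparison with injured 1 alone, chosen after seeing the data. There the differences were 1.17 for Ccnd1 (adjusted p = 0.0863), 3.45 for Ccne1, 3.89 for Ccna2, 4.64 for Ccnb1, 2.06 for Ccnb2 and 3.29 for Ccnf (adjusted p = 0.106 to 0.185). It called 1089 genes higher, 1444 lower and 0 cyclins, with fewer arrays by construction. The authors' deposited table called 3931 higher and 1063 lower, so 78.7% of its calls were higher against 57.2%, and gave 0.68 for Ccnd1 (adjusted p = 0.197), 0.83 for Ccna2, 0.11 for Ccnd2 and 0.34 for Ccnd3; the cause was not tested. Ccnd1 was 0.59 under quantile normalization. Ccnd3 was called lower under quantile normalization (-0.57), normexp with quantile normalization (-0.57), array weights (-0.43) and without basal 1 and 2 (-0.49). Probes above background on all arrays left 5 cyclins, 3 of them called, and did not test Ccna2, Ccnb1 and Ccnf, and genes with a reference symbol, an alternative chosen after seeing the data, gave 4763 higher and 3316 lower of 13430 tested. Leaving out 1 array at a time gave 0.69 to 1.02 for Ccnd1, -0.56 to -0.16 for Ccnd2, -0.44 to -0.23 for Ccnd3, 2.92 to 4.204 for Ccne1, 3.31 to 4.32 for Ccna2, 3.52 to 5.18 for Ccnb1, 1.92 to 2.53 for Ccnb2 and 2.81 to 3.87 for Ccnf, and 5 to 7 cyclins called. The gap between Ccnd2 and Ccnd3 changed sign under quantile normalization (0.29), normexp with quantile (0.51) or with the percentile (0.25), without basal 1 and 2 (0.25) and with injured 1 alone (0.0095). It ran from -0.21 to 0.28 with 1 array left out. None passed where pairs were tested, which was not done without basal 1 and 2 or with injured 1 alone. With the replicate block, 6897 genes were higher, 5181 lower and the same 6 cyclins were called; it was not run for pairs of cyclins. Of the list counts, the deposited table gave 9 ubiquitin ligases, 2 inhibitors and 2 other cyclins higher, with 0 inhibitors and 1 other cyclin lower. Probes above background on all arrays gave 4 Cdk genes, 2 inhibitors and 2 other cyclins higher and 5 other cyclins lower; injured 1 alone gave 2 Cdk genes, 1 kinase or phosphatase, 3 ligases and 4 pocket and E2F genes higher, with 0 inhibitors and 0 other cyclins higher. One inhibitor was lower, in place of 2, in 7 of 8 cases with 1 array left out, without basal 1 and 2, and with no filter on dim probes. Each slide held 1 group, so no slide block could be fitted. Dim signal limits Ccne2 on all arrays and Ccna2, Ccnb1 and Ccnf on some basal arrays.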
